A study of Homo sapiens with 45 samples.

Results

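The miRNAs bound to AGO2 in wild-type (WT) HCT116 cells were compared with the miRNAs of the whole cell. The comparison used 6 of the 45 libraries of the series, chosen by their library descriptions: 3 of RNA immunoprecipitated (IP) with the AGO2 antibody 3148 and 3 of whole-cell RNA. HCT116 is an epithelial line from a human colorectal carcinoma, and both groups came from the unmodified line grown in McCoy's 5A medium with serum, with no other treatment named. The whole-cell RNA was extracted with Trizol, whereas the IP started from a whole-cell extract, and all libraries were made with TruSeq Small RNA kits. Extraction and pulldown therefore differ together between the groups. Replicates are labelled as biological and numbered, but the labels do not say whether they were separate cultures, so p-values measure the spread between these libraries of a single line. For the sections on specificity, 3 libraries each of the AGO2 IP from AGO2 knockout (KO) cells, of AGO2 KO whole-cell RNA (a HCT116 derivative, no clone named), of a pan-AGO IP from WT cells and of an AGO1 IP (antibody 2A7) from WT cells were added.

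Argonaute proteins hold a mature miRNA and use its seed, the bases after the first one, to find target mRNAs. A miRNA hairpin is cut into a duplex of a 5p and a 3p arm. Argonaute keeps one strand as the guide, while the other, the passenger, is discarded and degraded. AGO2 is the human Argonaute best known for cutting its targets. Strand choice is known to favour a guide whose first base is U and whose 5′ end is weakly paired. A small RNA that is listed as a miRNA but does not enter Argonaute would be present in whole-cell RNA and missing from the pulldown, so the comparison asks which miRNA entries are over- or under-represented in AGO2.

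The sequences that carry the main contrasts are shown first, 5′ to 3′ from RefSeq (GRCh38.p14), with the seed (bases 2 to 8) in capitals. The first set rose in AGO2, and miR-19a-3p and miR-19b-3p share a seed.
miR-21-5p: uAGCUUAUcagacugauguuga
miR-19a-3p: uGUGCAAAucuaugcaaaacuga
miR-19b-3p: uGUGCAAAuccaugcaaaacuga
miR-29b-3p: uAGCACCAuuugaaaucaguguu
miR-429: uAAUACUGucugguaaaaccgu
miR-141-3p: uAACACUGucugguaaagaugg
miR-126-5p: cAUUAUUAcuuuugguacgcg
The second set shares the miR-15/16 seed, and within it miR-15a-5p went against the other members.
miR-16-5p: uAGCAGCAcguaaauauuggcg
miR-15b-5p: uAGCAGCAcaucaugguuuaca
miR-15a-5p: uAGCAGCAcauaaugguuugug
The third set shares the let-7 seed, of which let-7c-5p and let-7f-5p rose and let-7d-5p and let-7i-5p fell.
let-7c-5p: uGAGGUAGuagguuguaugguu
let-7f-5p: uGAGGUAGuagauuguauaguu
let-7d-5p: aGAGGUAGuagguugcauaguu
let-7i-5p: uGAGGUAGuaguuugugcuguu
The fourth set fell in share, steeply for all but miR-877-5p.
miR-877-5p: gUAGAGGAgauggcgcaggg
miR-6787-5p: uGGCGGGGguagagcuggcugc
miR-1469: cUCGGCGCggggcgcgggcucc
miR-4488: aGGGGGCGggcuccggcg
miR-4492: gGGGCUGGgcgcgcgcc
The last pair are the 3p and 5p arms of the miR-375 hairpin, whose balance inverted.
miR-375-3p: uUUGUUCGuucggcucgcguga
miR-375-5p: gCGACGAGccccucgcacaaacc
In GENCODE v29, miR-21-5p (chr17:59841273-59841294, plus strand) overlaps an exon of a VMP1 transcript. miR-19a-3p (chr13:91350939-91350961, plus strand) lies in the host transcript MIR17HG. The miR-15a-5p sequence (chr13:50049167-50049188, minus strand) lies in an intron of DLEU2, as does 1 of the 2 copies of miR-16-5p, the other being in an intron of SMC4. miR-877-5p (chr6:30584332-30584351, plus strand) lies in an intron of ABCF1, while miR-6787-5p (chr17:82236673-82236694, plus strand) and miR-1469 (chr15:96333261-96333282, plus strand) overlap exons of SLC16A3 and NR2F2.

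Total counts ranged from 8432763 to 8683483 in the AGO2 IP and from 5107698 to 5487181 in whole-cell RNA. Mature miRNAs took 81.8 ± 0.493% (SD, n = 3) of all counts in the AGO2 IP and 5.25 ± 0.476% in whole-cell RNA. The difference of 76.6 percentage points gave p = 0.1 in a two-sided exact permutation test, the smallest p that 3 against 3 allows. Whole-cell libraries therefore held only 259729 to 293458 miRNA counts, against 6898899 to 7142721 in the IP, and a floor of 3 counts corresponds to 10.2 to 11.6 counts per 1000000 (CPM) there and 0.42 to 0.435 CPM in the IP. Levels below are CPM of the library's miRNA counts, that is, the share of the miRNA pool, and fold changes are log2 ratios ± SE of these shares. The share of each miRNA among all counted RNAs is a different quantity. On that scale the log2 fold changes are higher, by 3.93 in the median, since miRNAs as a class make up more of the IP, so a fall in share clearly smaller than this is a positive log2 value relative to all counted RNAs. Neither scale gives molecules per cell, and less RNA per cell cannot be told apart from fewer cells carrying it.

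A minority of miRNAs gained share in AGO2 and most lost it. Of 2210 miRNAs tested with edgeR's quasi-likelihood test (Benjamini-Hochberg adjusted p under 0.05), 118 (5.34%) were higher and 1833 (82.9%) lower in the AGO2 IP, and 259 passed neither way. The groups of 3 did not overlap for 1983 miRNAs (89.7%), and the median log2 fold change was -3.95. The 118 that rose went from 48.5% of whole-cell miRNA counts to 75.5% of those in the IP. Of the 1833 that fell, 631 were also lower relative to all counted RNAs (28.6% of those tested, against 35.8% higher on that scale), and these went from 16.01% to 0.211% of miRNA counts. The other 1202 went from 20.7% to 9.85%. The median whole-cell level of those 1202 was 19.9 CPM, close to the floor. The low-count filter works on CPM, so a miRNA could pass it through whole-cell RNA alone, which makes falls more likely among those tested. With TMM factors, which assume that most miRNAs do not change, 33.4% were higher and 35.2% lower. In 1 fit of 18 libraries, which share an estimate of the spread, 69 were higher. There let-7a-5p, let-7b-5p, let-7f-5p, let-7d-5p, miR-25-3p, miR-23a-3p, miR-93-5p, miR-30c-5p, miR-125a-5p, miR-100-5p, miR-130b-3p, miR-222-3p, miR-126-3p, miR-1226-3p, miR-320a-3p and miR-486-5p, named below, did not pass. Among the 114 miRNAs at 1000 CPM or more in either group, 41 rose, 54 fell and 19 passed neither way. A miRNA could reach that level through a single group, so this split is partly set by the choice.

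**Figure D1:**
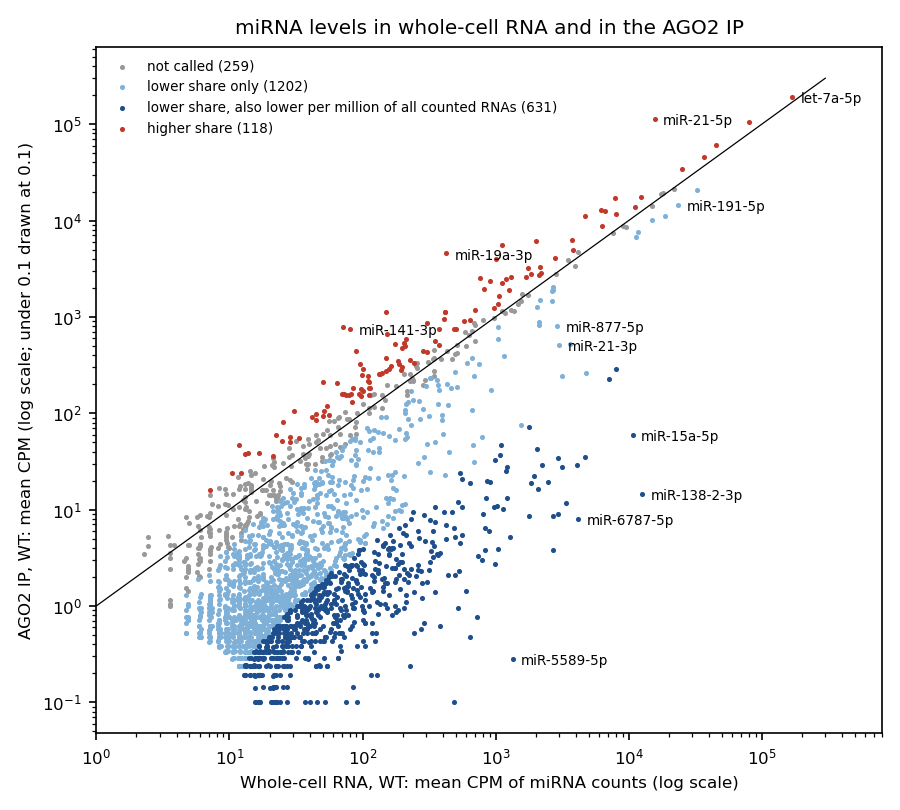
Mean CPM of miRNA counts in whole-cell RNA (horizontal, log scale) against the AGO2 IP (vertical, log scale) for 2210 miRNAs, with the line of equal share; IP means under 0.1 CPM are drawn at 0.1. The 118 higher miRNAs lie above the line and the 631 lower on both scales form the lower band, which includes miR-15a-5p.

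The most abundant miRNAs were largely common to both pools. Of the 10 with the highest counts in each group, 8 were shared: let-7a-5p, let-7b-5p, let-7f-5p, let-7g-5p, miR-23a-3p, miR-25-3p, miR-31-5p and miR-7-5p. The AGO2 IP list added miR-21-5p and miR-24-3p, and the whole-cell list miR-191-5p and let-7d-5p. The 10 leading the IP made up 62.9 ± 2.36% of its miRNA counts (SD, n = 3) and 46.2 ± 1.44% of those of whole-cell RNA. let-7a-5p, which restrains growth genes such as HMGA2 and RAS, led both pools at 169319 ± 8075 CPM in whole-cell RNA and 191747 ± 15557 CPM in the IP (log2 fold change 0.18 ± 0.0703, edgeR adjusted p = 0.021). This rise rests on single libraries: leaving out AGO2 IP replicate 3, whole-cell replicate 1 or whole-cell replicate 3 ended the call, with edgeR adjusted p up to 0.125, as did DESeq2 on the same scale (adjusted p = 0.114). miR-31-5p (22027 and 21145 CPM), miR-7-5p (17956 and 19303 CPM) and miR-24-3p (17423 and 19036 CPM) did not pass the test, with log2 fold changes of -0.06, 0.10 and 0.13. miR-31-5p was called lower with TMM factors from abundant miRNAs (edgeR adjusted p = 0.0381).

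The 12 named rises included miR-21-5p, both miR-19 guides, miR-429 and miR-126-5p. miR-21-5p, a tumour-promoting miRNA that represses PDCD4, stood at 15716, 14171 and 17091 CPM in the whole-cell libraries and at 115691, 108102 and 115918 CPM in the AGO2 IP. All IP libraries lay far above all whole-cell libraries. The mean rose 7.23-fold (log2 2.85 ± 0.0873, edgeR adjusted p = 3.65e-18), and miR-21-5p moved from outside the whole-cell leading 10 to second place in AGO2. miR-19a-3p, a growth-promoting member of the miR-17-92 cluster, stood at 453, 428 and 393 CPM in whole-cell RNA and 4750.3, 4705 and 4230.3 CPM in the IP. This 10.7-fold rise (log2 3.42 ± 0.142, edgeR adjusted p = 5.74e-16) was the largest among miRNAs at 1000 CPM or more. miR-19b-3p, which shares its seed, was already at 1929, 2114 and 1975 CPM in whole-cell RNA and reached 6495, 6535 and 5466 CPM, a log2 rise of 1.62 ± 0.123. The groups did not overlap for either miRNA. Since miR-19b-3p is encoded at 2 loci, its counts cannot be split between them.

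miR-429, a miR-200 member and repressor of the mesenchymal factors ZEB1 and ZEB2, went from 1022, 953 and 1066 CPM in whole-cell RNA to 4403, 3975 and 3647 CPM in the IP (log2 1.98 ± 0.133, edgeR adjusted p = 3.76e-12). miR-141-3p of the same family, below the abundance required for naming and chosen after its values were seen, went from 85.2, 79.5 and 77.00 to 762, 741 and 741 CPM (log2 3.21 ± 0.194). Neither miRNA overlapped between the groups. miR-29b-3p, known for repressing collagens and DNA methyltransferases, rose from 859, 684 and 758 to 2419, 2648 and 2610.5 CPM (log2 1.74 ± 0.142). miR-126-5p, from the EGFL7 intron and best known in endothelium, rose from 1152, 1071 and 1120.4 to 5823, 5856 and 5113 CPM (log2 2.33 ± 0.127), while its partner arm miR-126-3p fell from 1042 to 780.4 CPM (log2 -0.42 ± 0.151, higher relative to all counted RNAs by 3.55). The call of miR-126-3p was lost without whole-cell replicate 3 (edgeR adjusted p = 0.0835). The remaining named rises were miR-374a-5p (2.90, from 149.6 to 1115 CPM), miR-130a-3p (1.45), miR-27a-3p (1.44), miR-16-5p (1.38), miR-425-5p (1.25) and miR-151a-3p (1.24), all with groups that did not overlap.

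**Figure D2:**
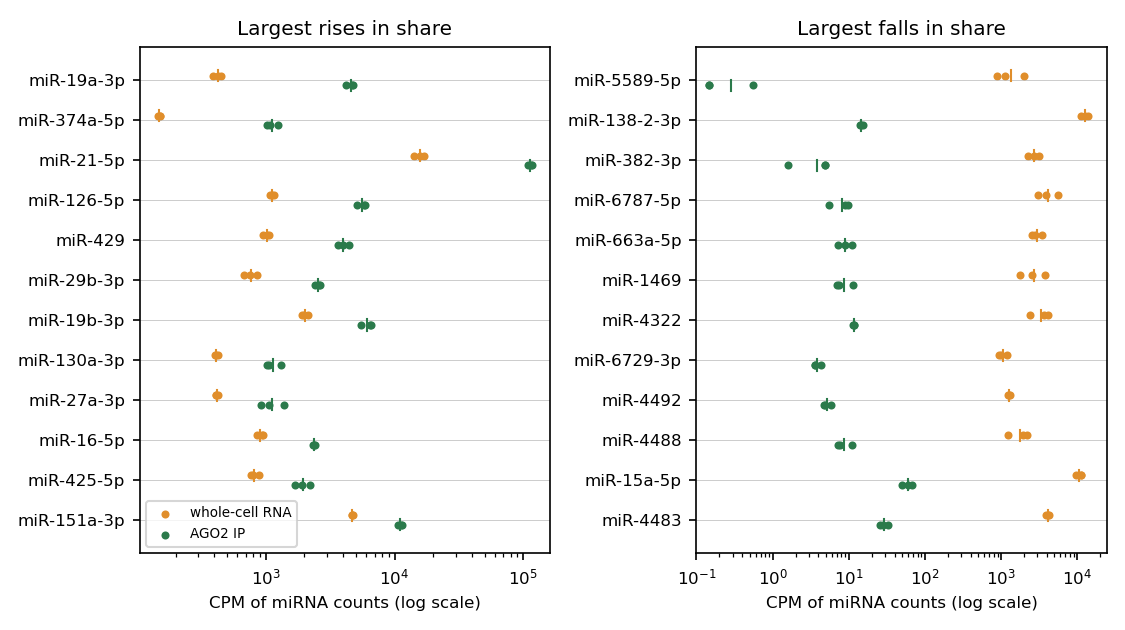
CPM of miRNA counts (log scale) in each of the 3 whole-cell (orange) and 3 AGO2 IP (green) libraries, with a tick at each mean, for the 12 largest rises (left) and 12 largest falls (right) among miRNAs at 1000 CPM or more. No pair of groups overlaps, and the falls span a wider range than the rises.

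The steepest falls were of entries that ranked high in whole-cell RNA and were nearly absent from AGO2. miR-138-2-3p, the 3p arm of a hairpin better known for its 5p arm, stood at 12690.1, 13877 and 11289 CPM in the whole-cell libraries and at 15.2, 14.6 and 14.04 CPM in the IP (log2 -9.75 ± 0.165, edgeR adjusted p = 1.30e-22). The sums were 10673 counts over the whole-cell libraries and 306 over the deeper IP libraries. miR-15a-5p, a member of the cell cycle-restraining miR-15/16 family, stood at 11327, 11114 and 9710.1 CPM in whole-cell RNA and 60.6, 67.2 and 50.8 CPM in the IP (log2 -7.49 ± 0.161, edgeR adjusted p = 1.40e-20). Both groups of values were tight and far apart. Both miRNAs also fell relative to all counted RNAs, miR-15a-5p with a log2 fold change of -3.54. miR-5589-5p had the largest fall, with 1114 counts over the whole-cell libraries and 6 over the IP libraries (log2 -12.03 ± 0.4). Its whole-cell level varied from 895 to 2002 CPM.

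Less studied entries filled much of the rest, several of them GC-rich as shown above. miR-6787-5p, a predicted mirtron, stood at 3844, 3092 and 5517 CPM in whole-cell RNA and 8.84, 5.46 and 9.84 CPM in the IP (log2 -9.01 ± 0.264). miR-1469 stood at 2549, 1748 and 3777 and 7.39, 7.0 and 11.4 CPM (log2 -8.28 ± 0.287). The whole-cell values of both spread widely between libraries, but no IP library came near them. miR-663a-5p (-8.35), miR-6729-3p (-8.07), miR-4492 (-7.94), miR-4488 (-7.68), miR-4483 (-7.14) and the 14q32 arm miR-382-3p (-9.46) completed the named falls with miR-4322 (-8.18), whose counts all came from entries for a variant of its sequence. Relative to all counted RNAs all 12 named falls were lower too, with log2 fold changes from -3.17 for miR-4483 to -8.09 for miR-5589-5p.

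A different set of well-known miRNAs lost share but stayed abundant in AGO2. Of the 54 miRNAs at 1000 CPM or more that fell in share, 31 were also lower relative to all counted RNAs and 20 were higher on that scale. miR-191-5p, among the most expressed miRNAs in epithelial tumours, went from 22242, 24207 and 24056 CPM in whole-cell RNA to 14548, 16325 and 12662 CPM in the IP (log2 -0.70 ± 0.101, edgeR adjusted p = 1.16e-06). It rose relative to all counted RNAs by 3.27. miR-222-3p, which represses the cell cycle inhibitor CDKN1B, went from 16050, 14786 and 13810.5 to 10669, 10257 and 9451 CPM (log2 -0.56 ± 0.101). The groups did not overlap for either, and on the scale of all counted RNAs miR-222-3p was also higher, by 3.40. Larger losses included those of miR-21-3p, the passenger arm of miR-21 (-2.55, from 2997 to 512 CPM), of the mirtron miR-877-5p (-1.85, from 2895 to 801 CPM) and of miR-331-3p (-1.25, from 2101 to 885 CPM). Relative to all counted RNAs these were higher, by 1.46, 2.10 and 2.72.

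Within the let-7 family, members with one seed divided. Of 17 members and arms on the list, 4 rose, 8 fell and 5 passed neither way, with a median of -0.17 against -3.95 over all miRNAs tested (5.34% higher and 82.9% lower). Relative to all counted RNAs 16 of the 17 were higher. let-7c-5p rose most (0.62 ± 0.134, from 2137 to 3285 CPM), followed by let-7f-5p (0.37 ± 0.0761), let-7b-5p (0.32 ± 0.0975) and let-7a-5p. let-7d-5p went from 18548, 20068 and 18053 CPM to 12120, 11661 and 9832 CPM, a fall of 0.75 on the log2 scale in share (edgeR adjusted p = 4.21e-07) and higher by 3.20 relative to all counted RNAs. It is the member shown above whose first base is A and not U. let-7i-5p (-0.74) and let-7g-5p (-0.64) fell in share and let-7e-5p (-0.08) and miR-98-5p (-0.17) did not pass. These members differ by few bases, and the counting rule for reads that match several was not stated in the sources used here. Their separate values carry that uncertainty. The let-7 3p arms let-7c-3p (-3.68), let-7e-3p (-2.40), let-7i-3p (-1.78), let-7g-3p (-1.74) and let-7b-3p (-1.35) fell in share, whereas let-7d-3p (-0.02), let-7a-3p (0.14) and miR-98-3p (0.05) did not pass. Of 3 further 3p arms outside the list, let-7a-2-3p (-1.12) fell in share, and let-7f-1-3p (-0.25) and let-7f-2-3p (0.33) did not pass.

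In the growth-promoting miR-17-92 cluster and its paralogs, 13 of 26 members tested rose and 7 fell, with a median of 0.35 (21 higher and 1 lower relative to all counted RNAs), against 5.34% higher and 82.9% lower over all miRNAs. Among the 114 miRNAs at 1000 CPM or more in either group, 41 rose and 54 fell. A miRNA could reach that level through a single group, so this split is partly set by the choice. The 31 of them lower on both scales had a median of 19.3 CPM in the IP. Both backgrounds apply to the other families below, with this limit. All 5 abundant members with the miR-17 seed, which represses CDKN1A, rose: miR-93-5p (0.46), miR-106b-5p (0.86), miR-17-5p (0.86), miR-106a-5p (0.98) and miR-20a-5p (1.58). miR-25-3p was high in both pools and rose from 45572 ± 1047 to 60416 ± 1513 CPM (SD, n = 3, log2 0.41 ± 0.0764). The 7 that fell included members of the X-linked copy of the cluster, miR-363-3p, miR-363-5p, miR-20b-3p and miR-18b-3p, all at or near the floor, from 5.87 CPM (miR-363-3p) to 20.5 CPM (miR-18b-3p) in whole-cell RNA. The miR-130, miR-301 and miR-454 family, a shared-seed group, showed 7 of 10 higher and 1 lower in share with a median of 0.61, and 9 higher relative to all counted RNAs. miR-301b-3p (1.76) led it, and miR-130b-3p rose from 1693 ± 45.2 to 2601 ± 273 CPM.

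In the epithelial miR-200 family, 4 of 9 rose, none fell in share and the median was 0.15. miR-200c-3p, its most abundant member, went from 12301 ± 377 to 17691 ± 219 CPM (0.52 ± 0.0927) and miR-200b-3p from 1305 ± 18.6 to 2566 ± 92.6 CPM (0.98 ± 0.129). All 9 were higher relative to all counted RNAs. With TMM factors taken from miRNAs at 100 CPM or more, which lower the log2 values by 0.159 in the median, 2 of the 9 fell. miR-200a-3p, a close relative of miR-141-3p, had a log2 fold change of 0.12 and did not pass, against 3.21 for miR-141-3p. As markers of epithelium its members summed to 16352 to 17335 CPM in whole-cell RNA. Blood markers summed to 150 to 177 CPM in whole-cell RNA and 100 to 103 CPM in the IP, with 1 of 9 tested higher and 6 lower in share (4 higher and 0 lower relative to all counted RNAs). Muscle and stroma markers summed to 2627 to 2915 and 6270 to 7262 CPM, of which miR-126-5p made up the larger part of the IP sum, and 1 of 9 rose and 6 fell in share (5 higher and 0 lower relative to all counted RNAs). Neural markers summed to 2356 to 2552 and 2731 to 3196 CPM, with 3 of 11 higher, namely miR-9-3p (1.21), miR-9-5p (0.90) and miR-132-3p (1.04), and 4 lower (8 higher and 2 lower relative to all counted RNAs). Over all miRNAs 82.9% were lower in share.

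The miR-15/16 family was split. miR-15b-5p (1.51 ± 0.17), miR-16-5p (1.38 ± 0.135) and miR-424-5p (70.3 to 156 CPM) rose, miR-15a-5p fell by 7.49 on the log2 scale, and over all 15 members 4 rose and 7 fell with a median of -0.82, against 5.34% higher, 82.9% lower and a median of -3.95 over all miRNAs (12 higher and 2 lower relative to all counted RNAs). Summed over the family, the level was 12952 to 14738 CPM in whole-cell RNA and 5338 to 5993 CPM in the IP. All 3 abundant members with the miR-29 seed rose: miR-29c-3p (2.30), miR-29b-3p (1.74) and miR-29a-3p (1.04). In the miR-23/27/24 clusters 4 of 11 rose and 5 fell in share (median -0.64), and all 11 were higher relative to all counted RNAs. The 4 were the guide arms miR-27a-3p (1.44), miR-27b-3p (0.64), miR-23b-3p (0.56) and miR-23a-3p (0.45), and the 5 were 5p passenger arms. In the miR-30 family 3 of 10 rose and 6 fell (median -0.61), with 9 higher relative to all counted RNAs. miR-30e-5p (1.45), miR-30b-5p (0.91) and miR-30c-5p (0.65) rose, while miR-30d-5p (-0.69) fell in share and was higher by 3.28 relative to all counted RNAs.

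Among the miR-125 members and the related miR-99, miR-100 and miR-10 members, 5 of 14 rose and 6 fell, 13 being higher and 1 lower relative to all counted RNAs (median -0.14). miR-125b-5p went from 7367, 7690.1 and 8778 CPM in whole-cell RNA to 22242, 15018 and 14134 CPM in the IP (log2 1.11 ± 0.135), with 1 IP library above the other two and no overlap. miR-10a-5p (1.00), miR-10b-5p (0.93), miR-125a-5p (0.56) and miR-100-5p (0.36) also rose, and miR-99a-5p (-2.69) fell in share. The call of miR-100-5p was lost without AGO2 IP replicate 1, whole-cell replicate 1 or whole-cell replicate 2, with edgeR adjusted p up to 0.0725. Of the tumour-associated arms of miR-21, miR-31, miR-221 and miR-222, 1 of 8 rose, miR-21-5p, and 4 fell in share, all 8 being higher relative to all counted RNAs. Of the p53-responsive miRNAs, miR-194-5p rose (1.04), 5 of 10 fell in share (6 higher and 1 lower relative to all counted RNAs), and miR-34a-5p, the best known of them, had 254 ± 6.78 and 332 ± 40.8 CPM without passing in edgeR (log2 0.38 ± 0.182, adjusted p = 0.0518), though DESeq2 called it (adjusted p = 0.0365). In the X-linked CLCN5-intron cluster, miR-362-3p (1.69) and miR-660-5p (1.26) rose and 7 of 15 fell in share, with 14 higher relative to all counted RNAs. miR-486-5p, an erythroid miRNA, was the 1 of 3 arms of miR-451a, miR-486 and miR-144 tested that rose (1.22 ± 0.361) at low level, from 16.6 ± 1.02 to 38.6 ± 3.2 CPM.

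**Figure D3:**
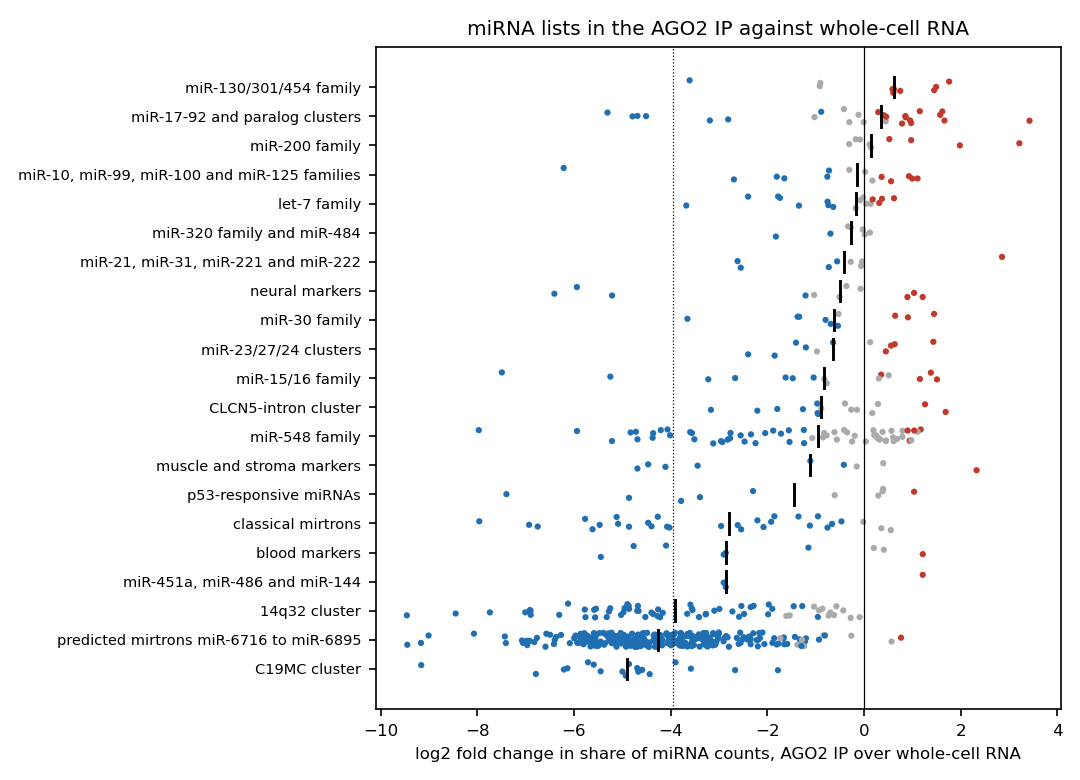
Log2 fold change in share (horizontal) of every tested member of 21 miRNA lists (rows, sorted by median), with a black tick at the list median, red for higher, blue for lower and grey for not called; the dotted line is the median of all 2210 miRNAs. The lists of the miR-130 family, the miR-17-92 clusters and the miR-200 family have medians above 0, and the C19MC, predicted mirtron and 14q32 lists have the lowest medians.

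Several hairpins bypass the usual nuclear processing. Classical mirtrons, which are released by splicing, had 27 of 30 arms lower and none higher in share, not far from the 82.9% lower over all miRNAs, and their median of -2.78 was above the -3.95 of all miRNAs. Relative to all counted RNAs 16 were higher and 9 lower. miR-877-5p was the most abundant of them, and miR-1226-3p had 322 ± 12.4 and 233 ± 43.9 CPM (-0.47 ± 0.188). The call of miR-1226-3p was lost without AGO2 IP replicate 2 or 3 or without whole-cell replicate 1 or 2, with edgeR adjusted p up to 0.1. The arms miR-6511b-3p (0.55), miR-6511a-3p (0.36) and miR-1224-3p (-0.01) did not pass. Predicted mirtrons from miR-6716 to miR-6895 had 283 of 291 lower and 1 higher in share, against 82.9% lower and 5.34% higher over all miRNAs. Their median of -4.26 was close to that of all miRNAs. On the scale of all counted RNAs 49 of them were higher and 89 lower, against 35.8% and 28.6% of all miRNAs. The list summed to 19508 to 26089 CPM in whole-cell RNA and 749 to 906 CPM in the IP. Its arms could pass the low-count filter through whole-cell RNA alone, which makes a lower share more likely. The miR-320 family and miR-484, made without DROSHA, had 2 of 7 lower in share, a median of -0.27 and all 7 higher relative to all counted RNAs. miR-320a-3p, the most abundant, went from 2052 ± 228 to 1268 ± 219 CPM (-0.69 ± 0.149, higher by 3.27 relative to all counted RNAs).

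The placental C19MC cluster had 18 of 18 tested arms lower in share, against 82.9% of all miRNAs, with a median of -4.89 against -3.95. Relative to all counted RNAs 9 were lower, against 28.6% of all miRNAs, and 1 higher. The cluster summed to 845 to 924 CPM in whole-cell RNA but 26.1 to 28.7 CPM in the IP. Of its 68 detected entries, the others did not pass the filter on low counts. That filter can be passed through either group. With so low an IP sum, many of the 18 tested arms passed it through whole-cell RNA, so a lower share was nearly fixed for them. Its leading whole-cell entry miR-520d-3p had 164, 197 and 169 CPM, against 2.61, 2.8 and 2.03 CPM in the IP. The imprinted 14q32 cluster had 54 of 66 lower and none higher in share, with a median of -3.91, values close to the 82.9% lower and the median of -3.95 over all miRNAs. Relative to all counted RNAs 18 were lower and 22 higher. The cluster summed to 7935 to 8667 and 230 to 288 CPM. miR-127-3p of that cluster went from 2426, 1745 and 2118 to 20.9, 17.6 and 10.3 CPM (log2 -7.01 ± 0.245) and fell by 3.04 relative to all counted RNAs. The transposon-derived miR-548 family was mixed, with 4 of 64 higher and 31 lower in share (median -0.96) and 48 higher and 3 lower relative to all counted RNAs. miR-548aa rose from 81.8 to 158 CPM (0.94) and miR-548d-3p from 141 to 264 CPM (0.90), and reads may be shared with near-identical copies.

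The balance of the 2 arms of a hairpin does not depend on how libraries are scaled. Of 263 hairpins whose arms passed a minimum of mean counts over the 6 libraries, 184 (70.0%) changed (limma, log2 of the 5p count over the 3p count, adjusted p under 0.05), 84 toward the 5p and 100 toward the 3p arm, and 174 of these had groups that did not overlap. An arm could pass this minimum through the deeper IP libraries alone. Some calls therefore rest on very few whole-cell counts, down to 2 per library for the 3p arm of miR-6787. With the major arm taken from the pan-AGO IP, 143 (54.4%) moved toward the major arm in AGO2 and 41 (15.6%) away from it, with a median over all 263 of 0.96 on the log2 scale toward the major arm. For 61 hairpins with at least 300 whole-cell counts the numbers were 28 toward and 13 away, with a median of 0.68. In 50 hairpins that changed, the larger arm differed between whole-cell RNA and the AGO2 IP, and in 40 of them the larger arm in AGO2 was that of the pan-AGO IP. A pan-AGO pulldown of the same WT cells takes up AGO2 as well. The moves toward its major arm are therefore partly built in by the choice of reference. A move away from that arm need not be a move away from the arm balance of the pan-AGO IP.

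The miR-21 hairpin was already dominated by its 5p guide and became almost pure in AGO2. Its 5p arm made up 86.6, 90.4 and 77.1% of the hairpin's counts in the whole-cell libraries and 99.4, 99.6 and 99.7% in the IP (log2 ratio change 5.28 ± 0.427, limma adjusted p = 1.70e-05). The miR-19a hairpin changed the same way for its 3p guide, with a 5p part of 29.6, 28.7 and 28.7% in whole-cell RNA and 0.613, 0.559 and 0.439% in the IP (-6.26 ± 0.25, limma adjusted p = 1.73e-06). The miR-19a groups were tight and far apart, whereas the whole-cell values of miR-21 spread more widely, without overlap with the IP. Of hairpins with nearly even arms in whole-cell RNA, some became one-sided and others did not, and the examples were chosen after their values were seen. The 5p share of miR-574 went from 50.2% to 52.8% and that of miR-130b from 42.7% to 42.5%, and neither passed the test. In mean 5p share, miR-126 went from 51.8% to 87.8%, miR-194 from 51.5% to 96.9%, miR-27a from 51.4% to 10.1% and miR-141 from 52.6% to 11.9%, though miR-194 and miR-141 rested on few whole-cell counts (14.3 and 25.7 counts of the 5p arm per library).

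Some hairpins inverted. For miR-375, known from pancreatic islets and gut endocrine cells, the 5p arm made up 98.5, 93.3 and 96.4% of counts in the whole-cell libraries and 7.42, 8.98 and 8.2% in the IP (-8.13 ± 0.489, limma adjusted p = 4.80e-06). Its 3p arm, shown above, begins with U and its 5p arm with G, and the whole-cell 3p arm rested on 3.67 counts per library. miR-3615 went from 81.8% to 6.01% 5p and miR-1227 from 75.5% to 4.71%. Toward the 5p arm, miR-624 went from 6.34% to 88.3%, miR-545 from 12.3% to 86.8%, miR-3613 from 36.5% to 94.8% and miR-5584 from 5.1% to 90.4%. miR-5584 rested on 7.67 whole-cell counts of the 5p arm and 3.33 IP counts of the 3p arm per library. The whole-cell 5p arms of miR-545 and miR-624 had 10.3 and 15 counts per library. Others moved away from the major arm of the pan-AGO IP. miR-15a fell from 99.2% to 67.6% 5p (-5.81 ± 0.262) and miR-6787 from 99.8% to 57.1% (-8.61 ± 0.494), both being hairpins whose 5p arms were among the steepest falls in share. The whole-cell 3p arm of miR-6787 rested on 2 counts per library, so the size of its change is uncertain. miR-382 went from 1.96% to 79.6% 5p (7.66 ± 0.447) with the loss of miR-382-3p. The pan-AGO IP itself was at 75.2 ± 3.35% 5p for miR-15a, 85.5 ± 7.08% for miR-6787 and 39.4 ± 9.99% for miR-382 (SD, n = 3). For all of these hairpins it thus differed from whole-cell RNA in the same direction as the AGO2 IP. In the AGO2 IP of AGO2 KO cells the 5p part was 94.04% for miR-21, 65.8% for miR-375 and 68.9% for miR-624.

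**Figure D4:**
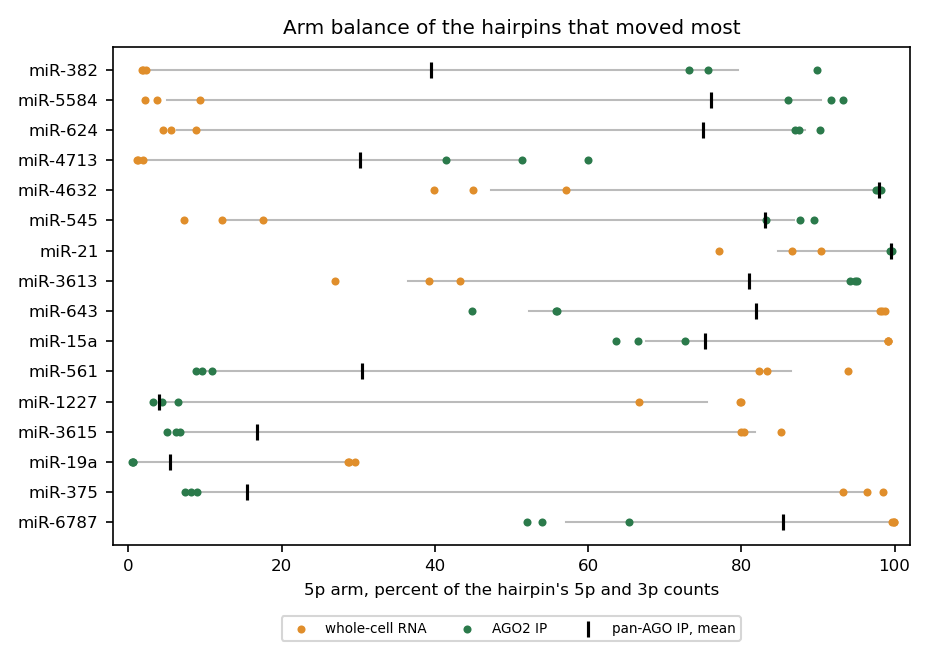
Share of the 5p arm in the 5p and 3p counts of a hairpin (horizontal, percent) for the 16 named hairpins (rows), in 3 whole-cell (orange) and 3 AGO2 IP (green) libraries, with a black tick at the pan-AGO IP mean. The groups do not overlap for any hairpin, and miR-375, miR-3615, miR-624 and miR-545 cross from one arm to the other.

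The base composition of miRNAs that rose and fell is given as a description, with no test. Among 477 miRNAs at 100 CPM or more in either group, 390 (81.8%) had a RefSeq sequence. A miRNA could reach this level through the group where it was high. miR-1469 (2691 and 8.61 CPM) did so through whole-cell RNA and miR-141-3p (80.6 and 748 CPM) through the IP. The calls and fold changes described here are therefore partly set by this choice. Median GC content was 40.9% for the 85 higher miRNAs, 50% for the 58 that passed neither way, 59.1% for the 105 lower in share only and 65.0% for the 142 lower on both scales. The first base was U in 55 of the 85 higher miRNAs (64.7%), against 21.9% of those lower in share only, 25.4% of those lower on both scales and 25.9% of those that passed neither way. G began 3.53% of the higher miRNAs and 27.5% of those lower on both scales. Across the 390 miRNAs, which share the same 6 libraries and are not independent replicates, GC content and log2 fold change had a Pearson r of -0.43 and a Spearman rho of -0.45. Without the 142 lower on both scales they were -0.48 and -0.53. At 1000 CPM or more, 61.1% of 36 higher miRNAs began with U, against 26.1% of the 23 lower on both scales. The part was 30% of the 20 lower in share only and 44.4% of the 18 that passed neither way. The sequences above were chosen with their fold changes known and only illustrate this. miR-21-5p, miR-19a-3p, miR-29b-3p and miR-429 begin with U and are AU-rich, whereas miR-1469, miR-4488 and miR-4492 hold mainly G and C. miR-126-5p also rose and begins with C. miR-15a-5p and miR-6787-5p begin with U and fell, so the first base did not separate the sets.

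**Figure D5:**
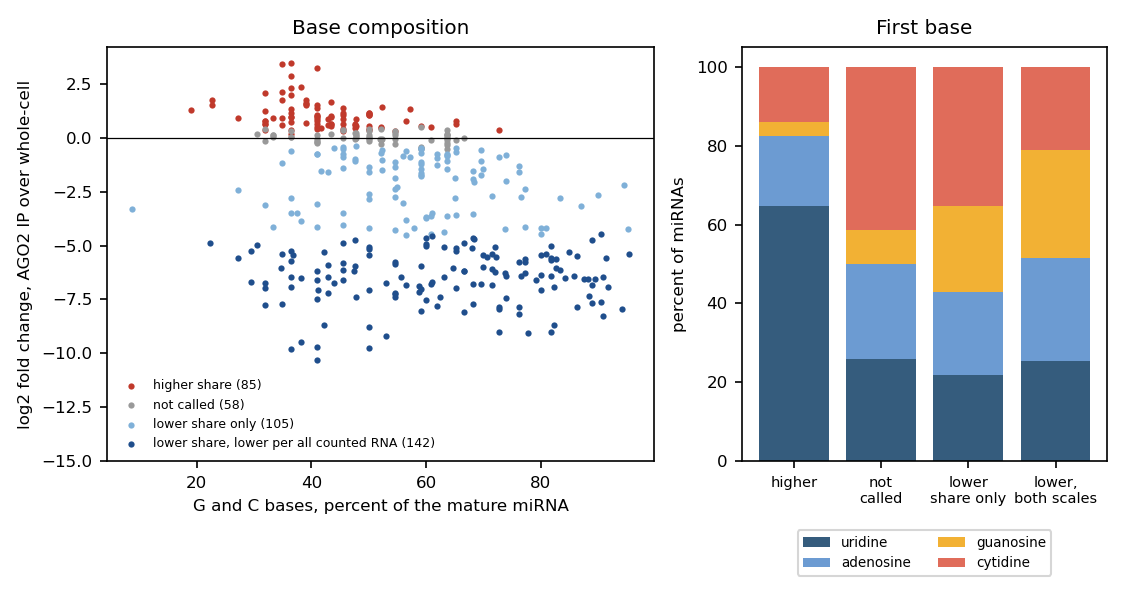
Left, GC content of the mature miRNA (percent) against log2 fold change in share for 390 miRNAs at 100 CPM or more in either group, coloured by call; right, stacked percent of miRNAs of each call that begin with each base. Higher miRNAs sit at low GC (median 40.9%) with U first in 64.7%, and those lower on both scales reach the highest GC contents (median 65.0%).

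The AGO2 antibody was also used on AGO2 KO cells, as a control for the antibody. AGO2 protein was not measured, and fragments of AGO2 transcripts, at 12.97 to 19.5 CPM of all counted RNAs in WT whole-cell RNA and 8.18 to 15.97 CPM in AGO2 KO, do not check the knockout. miRNAs made up 19.3 ± 3.66% of counts in the AGO2 KO IP, against 81.8% in WT. miR-21-5p stood at 92644 ± 3257 CPM of all counted RNAs in the WT IP and 18742 ± 6261 in the KO IP (SD, n = 3). As a share of miRNAs, miR-21-5p had 95821 CPM in the KO IP and 16376 CPM in KO whole-cell RNA, and the difference between the WT and KO contrasts was 0.31 ± 0.323 (edgeR adjusted p = 0.416). miR-19a-3p had 7824 and 1182 CPM (difference 0.70 ± 0.686). For none of the 12 named rises did this difference pass the test, though the SEs of 0.323 to 0.708 leave room for sizeable differences.

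The difference between the contrasts passed for 6 miRNAs (0.265% of 2263) higher in WT and 1415 (62.5%) lower. let-7f-5p (0.71 ± 0.3, edgeR adjusted p = 0.0419) and let-7a-5p (0.70 ± 0.29, edgeR adjusted p = 0.0374) were the abundant ones higher in WT. let-7a-5p had 96235 ± 24506 CPM in the KO IP and 138263 ± 9916 CPM in KO whole-cell RNA. Leaving out 1 library ended the call of each in 8 of 12 cases (AGO2 KO IP replicate 1 or 3, WT IP replicate 2 or 3, KO whole-cell replicate 1, or any WT whole-cell replicate), with edgeR adjusted p up to 0.113 for let-7f-5p. The 12 named falls were all among those lower in WT, that is, they were less depleted in the KO pulldown. miR-6787-5p had 544 ± 233 CPM in the KO IP, against 8.05 ± 2.3 CPM in the WT IP (difference of contrasts -5.23 ± 0.613, edgeR adjusted p = 6.42e-06), and miR-4483 had 776 ± 325 against 28.96 ± 3.74 CPM (-4.83 ± 0.628). The libraries also differed in miRNA share, 19.3% in the KO IP and 81.8% in the WT IP, and the part of this in these differences was not tested. With TMM factors the counts were 346 higher and 112 lower, and relative to all counted RNAs 111 and 625. Differences between the lines other than the knockout cannot be told apart from it.

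Against the pan-AGO IP of the same WT cells, 89 miRNAs (3.93%) took a larger and 1253 (55.4%) a smaller share in the AGO2 IP. miR-24-3p, which did not differ from whole-cell RNA by test, had 19036 ± 1483 CPM in the AGO2 IP and 2685 ± 155 CPM in the pan-AGO IP (log2 2.83 ± 0.365, edgeR adjusted p = 1.73e-05). miR-31-5p (21145 ± 918 and 6619 ± 715 CPM, 1.68 ± 0.309) and let-7d-5p (11204 ± 1210.2 and 3593 ± 388 CPM, 1.64 ± 0.374) were also higher in the AGO2 IP, as were miR-185-5p (2.51), miR-130b-3p (1.98) and miR-744-5p (1.87). let-7d-5p thus had a lower share in AGO2 than in the cell and a higher one than in the pan-AGO IP. 3p arms of the let-7 family went the other way. let-7d-3p had 7504 ± 2114 CPM in the AGO2 IP and 49398 ± 15941 CPM in the pan-AGO IP (-2.72 ± 0.369), and let-7b-3p (-2.69) and miR-98-3p (-2.48) were lower too. With TMM factors let-7b-3p (-0.99) and miR-98-3p (-0.92) no longer passed, and let-7d-3p was at -1.14. The call of miR-744-5p was lost without pan-AGO IP replicate 1 or 2, with edgeR adjusted p up to 0.0637. This comparison and the following one share the AGO2 IP libraries with the main one.

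Against the AGO1 IP, 67 miRNAs (2.96%) took a larger and 1846 (81.6%) a smaller share in the AGO2 IP. miR-16-5p had 2373 ± 48.8 CPM in the AGO2 IP and 691 ± 299 CPM in the AGO1 IP (log2 1.78 ± 0.335, edgeR adjusted p = 2.91e-05), and let-7c-5p 3285 ± 488 and 1267 ± 359 CPM (1.38 ± 0.318). miR-125b-5p (1.71), miR-185-5p (1.72), miR-130a-3p (1.42) and miR-1307-3p (1.94) were also higher in the AGO2 IP. With the AGO2 antibody in AGO2 KO cells, miR-16-5p had 1954 CPM, miR-125b-5p 15318, miR-185-5p 2715, miR-130a-3p 1479 and miR-1307-3p 1996. In the WT IP miR-125b-5p had 17131.5 CPM, miR-185-5p 2498, miR-130a-3p 1133 and miR-1307-3p 2735. Of these named miRNAs only let-7c-5p was far lower in the KO IP, at 830 ± 305 CPM. miR-539-3p of the 14q32 cluster had 42.9 ± 2.88 CPM in the AGO2 IP and 1557 ± 759 CPM in the AGO1 IP (-5.18 ± 0.481). The AGO1 IP libraries held 11.5 to 27.2% miRNA counts and varied far more between replicates than the AGO2 IP. The part of the miRNA share of the pulldown in these differences was not tested. The call of miR-1307-3p was lost without AGO1 IP replicate 2 or 3, with edgeR adjusted p up to 0.0702.

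The pool outside miRNAs contracted in the pulldown. Fragments of ribosomal RNA took 36.3 ± 3.7% of whole-cell counts and 4.55 ± 0.467% of AGO2 IP counts (SD, n = 3). Cytosolic tRNA took 16.2 ± 3.69% and 0.973 ± 0.136%, mitochondrial tRNA 14.9 ± 1.32% and 3.33 ± 0.166%, and Ensembl transcripts 27.02 ± 0.832% and 9.14 ± 0.0587%. miRNA precursor rows went the other way at 0.0454 ± 0.0069% and 0.166 ± 0.0052%. Groups did not overlap for any of these classes.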

How the data were processed

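Small RNAs of HCT116 cells were counted in 18 of the 45 libraries, 3 per group. The deposited values are raw counts per RNA feature, for which the submitters' processing notes name cutadapt 1.16, Bowtie 1.1.2 and GRCh38 (hg38). The sources used here do not give settings or the treatment of reads that match several features, and no molecular identifiers are named, so floors cover counting error only. Counts of miRNA variant entries were summed to their miRNA (2.42 to 3.01% of whole-cell and 0.472 to 0.543% of AGO2 IP miRNA counts).

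miRNAs were tested with edgeR 4.0.16 (R 4.3.3), filterByExpr (minimum count 10, total 15), the miRNA total as library size with no TMM factor, since TMM assumes that most rows do not change, and Benjamini-Hochberg adjustment over all miRNAs tested. SEs were derived as log2 fold change divided by √F. The 6 libraries entered 1 fit. The contrasts with AGO2 KO, pan-AGO and AGO1 came from 1 fit of 18 libraries. Arm balance used limma 3.58.1 with log2 of the 5p over the 3p count, a pseudocount of 0.5 and, as mean counts over the 6 libraries, a minimum of 10 for the smaller arm and of 50 for their sum. Alternatives included TMM, RLE and all-RNA totals, DESeq2 1.42.0, other filters, leaving out each library, and a block for replicate number. The fits were tested on simulated data.

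Members and lists were chosen with earlier results of these data known. Named miRNAs were up to 12 rises and 12 falls with groups that did not overlap at 1000 CPM or more, the 10 most abundant per group, up to 4 per list, up to 8 hairpins each way, and up to 6 each way per further contrast. Other members were named for their list or seed. Sequences are RefSeq's on GRCh38.p14, and gene positions GENCODE v29. Python 3.11.15 with matplotlib 3.10.9, scipy 1.17.1, numpy 2.4.6 and pandas 2.3.3 made tables and plots.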

Additional observations from a re-analysis of the deposited data

Results flagged for a closer look

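The contrast of the AGO2 IP with whole-cell RNA differed between WT and AGO2 KO cells by a direct test of the difference (edgeR's quasi-likelihood interaction, Benjamini-Hochberg adjusted), which 6 miRNAs passed as higher and 1415 as lower in WT. The named miRNAs were let-7f-5p (0.71) and let-7a-5p (0.70), higher in WT, and miR-6787-5p (-5.23), miR-4455 (-4.87), miR-222-5p (-4.84), miR-4483 (-4.83), miR-3648-3p (-4.61) and miR-6869-5p (-4.43), lower in WT, all as log2 differences of shares. With TMM factors miR-222-5p (-2.38), miR-3648-3p (-2.05) and miR-6869-5p (-1.84) no longer passed. miR-222-5p had 1989 ± 1411 CPM in the AGO2 KO IP, 109 ± 32.1 CPM in the WT IP, 665 ± 60.4 CPM in WT whole-cell RNA and 428 ± 216 CPM in AGO2 KO whole-cell RNA (SD, n = 3). miRNA counts made up 19.3% of the AGO2 KO IP and 81.8% of the WT IP, and the part of this in the differences was not tested.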

How the results depend on the processing

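Values are counts of miRNAs higher and lower unless said. In the AGO2 IP against whole-cell RNA, 118 and 1833 became 739 and 779 with TMM factors, 736 and 782 with RLE factors, 791 and 631 relative to all counted RNAs, 675 and 581 with DESeq2's own size factors (1256 in all), 69 higher with 18 libraries in 1 fit, and 1032 lower (1151 in all) at a minimum count of 50. The TMM factors ran from 0.265 to 0.298 in the IP and from 3.41 to 3.74 in whole-cell RNA. The TMM, RLE and all-RNA scales raise the median log2 value by 3.65 to 3.93. Under them 27 named negative values became positive, passing as higher for all but miR-486-3p, miR-144-3p, miR-1323 and miR-548l, given as log2 values for TMM, RLE, all counted RNAs and DESeq2's own factors in that order: let-7d-5p (2.93, 2.91, 3.20, 2.91), let-7g-5p (3.06, 3.05, 3.33, 3.05), miR-1226-3p (3.21, 3.20, 3.49, 3.20), miR-126-3p (3.28, 3.26, 3.55, 3.26), miR-128-3p (3.62, 3.60, 3.89, 3.60), miR-1323 (0.10, 0.085, 0.37, 0.0868), miR-142-5p (2.54, 2.52, 2.80, 2.53), miR-144-3p (0.71, 0.69, 0.97, 0.76), miR-145-3p (2.57, 2.56, 2.84, 2.56). The same order holds for miR-188-5p (2.73, 2.71, 3.01, 2.72), miR-191-5p (2.99, 2.98, 3.27, 2.98), miR-200b-5p (3.52, 3.50, 3.78, 3.50), miR-221-3p (3.65, 3.63, 3.92, 3.63), miR-222-3p (3.13, 3.12, 3.40, 3.12), miR-30b-3p (2.35, 2.34, 2.62, 2.34), miR-30c-1-3p (2.31, 2.30, 2.58, 2.30), miR-30e-3p (3.15, 3.13, 3.42, 3.13), miR-31-5p (3.63, 3.62, 3.90, 3.62). It also holds for miR-3200-3p (2.56, 2.54, 2.85, 2.54), miR-320a-3p (2.99, 2.98, 3.27, 2.98), miR-320a-5p (3.40, 3.38, 3.69, 3.38), miR-484 (3.66, 3.64, 3.94, 3.64), miR-486-3p (0.76, 0.74, 1.03, 0.73), miR-532-3p (3.41, 3.40, 3.69, 3.40), miR-548l (0.18, 0.16, 0.46, 0.16), miR-548q (0.92, 0.90, 1.19, 0.90), miR-877-5p (1.84, 1.83, 2.10, 1.83). With TMM factors from miRNAs at 100 CPM or more, miR-24-3p (-0.0308), miR-320b (-0.14), miR-7-5p (-0.047) turned negative; none had passed. The calls of let-7a-5p, let-7b-5p, miR-92a-3p, miR-15b-3p and miR-100-5p were lost there, and miR-31-5p, miR-200b-5p, miR-320a-5p and miR-532-3p became called as lower (edgeR adjusted p = 0.0381, 0.0293, 0.0286 and 0.0137). DESeq2 on the miRNA total called miR-34a-5p higher (adjusted p = 0.0365). In the fit of 18 libraries, whose spread includes the noisier pulldowns, 21 named calls were lost, those given in the report and miR-92a-3p, miR-15b-3p, miR-30e-3p, miR-130b-5p and miR-486-3p. Leaving out 1 library also ended calls of miR-92a-3p, miR-15b-3p, miR-144-3p and miR-486-3p, with edgeR adjusted p up to 0.0741, 0.139, 0.0558 and 0.185. Without variant entries miR-320b was -0.0156, and 2 named miRNAs counted through variants alone had no value.

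Leaving out 1 library gave 1882 to 1959 calls in all, 108 to 124 higher and 1773 to 1849 lower. The values that changed sign there were of miRNAs that did not pass, given with their lowest and highest values: miR-142-3p (-0.000762 without whole-cell, WT replicate 3, range -0.000762 to 1.05), miR-150-5p (-0.14 without whole-cell, WT replicate 2, range -0.14 to 0.45), miR-221-3p (0.0748 without AGO2 IP, WT replicate 3, 0.00654 without whole-cell, WT replicate 2, range -0.12 to 0.0748), miR-320b (-0.11 without AGO2 IP, WT replicate 1, -0.10 without whole-cell, WT replicate 3, range -0.11 to 0.15), miR-484 (0.0367 without AGO2 IP, WT replicate 2, 0.0819 without AGO2 IP, WT replicate 3, 0.0179 without whole-cell, WT replicate 3, range -0.21 to 0.0819), miR-99b-5p (-0.0274 without AGO2 IP, WT replicate 1, range -0.0274 to 0.33). The miRNA share difference of 76.6 points was 82.8 without Ensembl transcripts. For arm balance, 30 counts in the minor arm left 117 calls, 54 toward 5p and 63 toward 3p, and leaving out 1 library gave 158 to 184, 68 to 83 and 89 to 101. For WT minus AGO2 KO, TMM gave 458 calls (346 and 112) and all counted RNAs 736 (111 and 625), and leaving out 1 library 1273 to 1437 calls, 4 to 10 higher (10 without AGO2 KO IP replicate 2) and 1263 to 1431 lower. Against the pan-AGO IP, TMM gave 799 (476 and 323), all counted RNAs 847 (248 and 599) and leaving out 1 library 926 to 1342, 56 to 110 (56 without pan-AGO replicate 2) and 870 to 1232. Against the AGO1 IP, TMM gave 1199 (636 and 563), all counted RNAs 440 and 1046 and leaving out 1 library 1810 to 1900, 52 to 101 (101 without AGO1 IP replicate 1) and 1758 to 1826.

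The labels do not say whether same-numbered libraries are paired. Deviations of same-numbered libraries from their group means correlated at -0.052, 0.258 and 0.0427 over 477 miRNAs. With 3 libraries per group these values can neither show nor exclude a pairing. With the replicate block the calls were 117 higher and 1837 lower, 87 and 95 for arm balance, 6 and 1402 for WT minus AGO2 KO, 83 and 1228 against the pan-AGO IP and 68 and 1829 against the AGO1 IP. Whole-cell depth limits miRNAs near 10.2 to 11.6 CPM, where a few counts decide the value.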

Other observations

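Reads listed under miRNA hairpin precursors differed between hairpins. In CPM of all counted RNAs, the mir-7-1 precursor stood at 15.7, 18.6 and 15.3 in the whole-cell libraries and 253, 268 and 263 in the AGO2 IP, and the mir-454 precursor at 3.84, 3.33 and 4.01 and 79.2, 87.8 and 78.03. Both were far higher in every IP library. In the AGO2 IP of AGO2 KO cells mir-7-1 stood at 121, 73.2 and 95.6 and mir-454 at 9.13, 8.19 and 7.91. The mir-12136 entry went the other way, at 258, 278 and 393 in whole-cell RNA and 158, 138 and 159 in the IP. Of other small RNAs, ACA33, an H/ACA-type snoRNA, was higher in the IP (14.8, 10.6 and 12.7) than in whole-cell RNA (6.21, 4.5 and 3.46). These rows were chosen after their values were seen and were not tested.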
